A study of Rattus norvegicus with 28 samples.

Results

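The D-type cyclins and the inhibitors of cyclin-dependent kinases were described in cultured rat fibroblasts, as 10 genes chosen by name: Ccnd1, Ccnd2, Ccnd3, Cdkn1a, Cdkn1b, Cdkn1c, Cdkn2a, Cdkn2b, Cdkn2c and Cdkn2d. The expression table held 30178 genes and 9 of the 10 members. The expression of Cdkn2d was not analysed here. Of the 9, 8 were above 0 in at least 1 library, and 5 (Ccnd1, Ccnd3, Cdkn1a, Cdkn1b and Cdkn2c) passed the filter for testing, a level of 1 FPKM or more in 2 or more libraries. FPKM divides a gene's fragments by its length and by the library's total, so levels of genes of different length can be compared within a library.

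The study used NRK-49F, an established line of rat kidney fibroblasts, and measured polyA RNA by sequencing in 8 libraries, 2 in each of 4 groups. The cells were grown in 10% serum and starved for 24 h in 0.2% serum before exposure to TGF-β1 at 5 ng per μL, as the labels print it. The control group had no TGF-β1 named on its labels and no time, the TGF-β group had 48 h of TGF-β1, and the remaining groups had the same TGF-β1 exposure with methionine restriction (MetR, 30 μM methionine against 200 μM in the control medium) or with siHoxc8, by its notation an siRNA that targets Hoxc8, a homeobox gene. The labels do not say in which medium the cells given TGF-β1 alone were kept, and no library with a non-targeting siRNA was analysed here, so an effect of transfection cannot be told apart from that of the siRNA. Whether the 2 libraries in each group are separate cultures is not stated either, and the p-values then reflect library-to-library spread alone, which may be technical.

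In G1, D-type cyclins bind the kinases CDK4 and CDK6, and the complex phosphorylates the retinoblastoma protein, which releases E2F factors that switch on the genes of DNA replication. The INK4 inhibitors (encoded by Cdkn2a, Cdkn2b, Cdkn2c and Cdkn2d) bind CDK4 and CDK6 alone, whereas the CIP/KIP inhibitors (encoded by Cdkn1a, Cdkn1b and Cdkn1c) bind cyclin-CDK complexes, above all those of CDK2. TGF-β is known for stopping epithelial cells in G1 through these inhibitors, while in kidney fibroblasts it is better known for driving matrix production and myofibroblast differentiation.

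The deposited values corresponded to 15118113 to 20146870 reads per library. Hoxc8 was at 1.12 and 1.34 FPKM in control cells, 4.32 and 5.01 with TGF-β, 0.417 and 0.614 with MetR, and 0.463 and 0.0771 with siHoxc8, so the libraries labelled siHoxc8 had less Hoxc8 mRNA than those with TGF-β alone, and those with MetR did too (adjusted p = 0.000182 and 0.000272). Of 8 fibroblast markers 7 were in the table and 6 reached 1 FPKM in at least 1 library, among them Col1a1, Col3a1 and Vim, while Thy1 was listed at 0. Their summed level was 6284 to 6350 FPKM in control, 11270 to 12040 with TGF-β, 5622 to 8246 with MetR and 9354 to 9874 with siHoxc8. Col1a1 and Vim made up most of that sum, and other markers went the other way with TGF-β: Pdgfra was at 29.43 and 25 FPKM in control and 8.25 and 8.6 with TGF-β, and Pdgfrb at 22.02 and 23.59 against 8.44 and 8.17. Dcn also went from 1.08 and 0.877 FPKM in control to 0.0993 and 0.0655 with TGF-β. It reached 1 FPKM in control replicate 1 alone, stood at 0.32 and 0.399 with MetR, and was listed at 0 with siHoxc8. Of 6 epithelial markers only Krt8 and Cdh16 passed 1 FPKM, with Epcam listed at 0, and their sum stood at 646 to 685.5 FPKM with siHoxc8 against 193.7 to 254.7 in the other libraries. That sum is nearly all Krt8, at 685.1 and 645.5 FPKM with siHoxc8, while Cdh16 was listed at 0 and 0.0189 there and at 2.53 and 2.76 with MetR. No endothelial marker passed 1 FPKM, and of 6 immune markers only Cd68 did. The part of these shifts in the results was not tested, and in bulk RNA fewer cells expressing a gene cannot be told apart from less of its RNA per cell. An exact 0 is given here only as listed at 0, since 13 mitochondrial genes were listed at 0 in every library.

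TGF-β lowered Ccnd1, Cdkn1b and Cdkn2c and raised Cdkn1a and Ccnd3. With siHoxc8 added, Ccnd1 and Cdkn2c were raised and Cdkn1a was lowered against TGF-β alone, and none of these 3 differed from control beyond the threshold. With MetR added, Ccnd1 and Cdkn2c were raised as well, Ccnd3 and Cdkn1b were lowered, and Cdkn1a did not differ from TGF-β alone beyond the threshold.

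**Figure D1:**
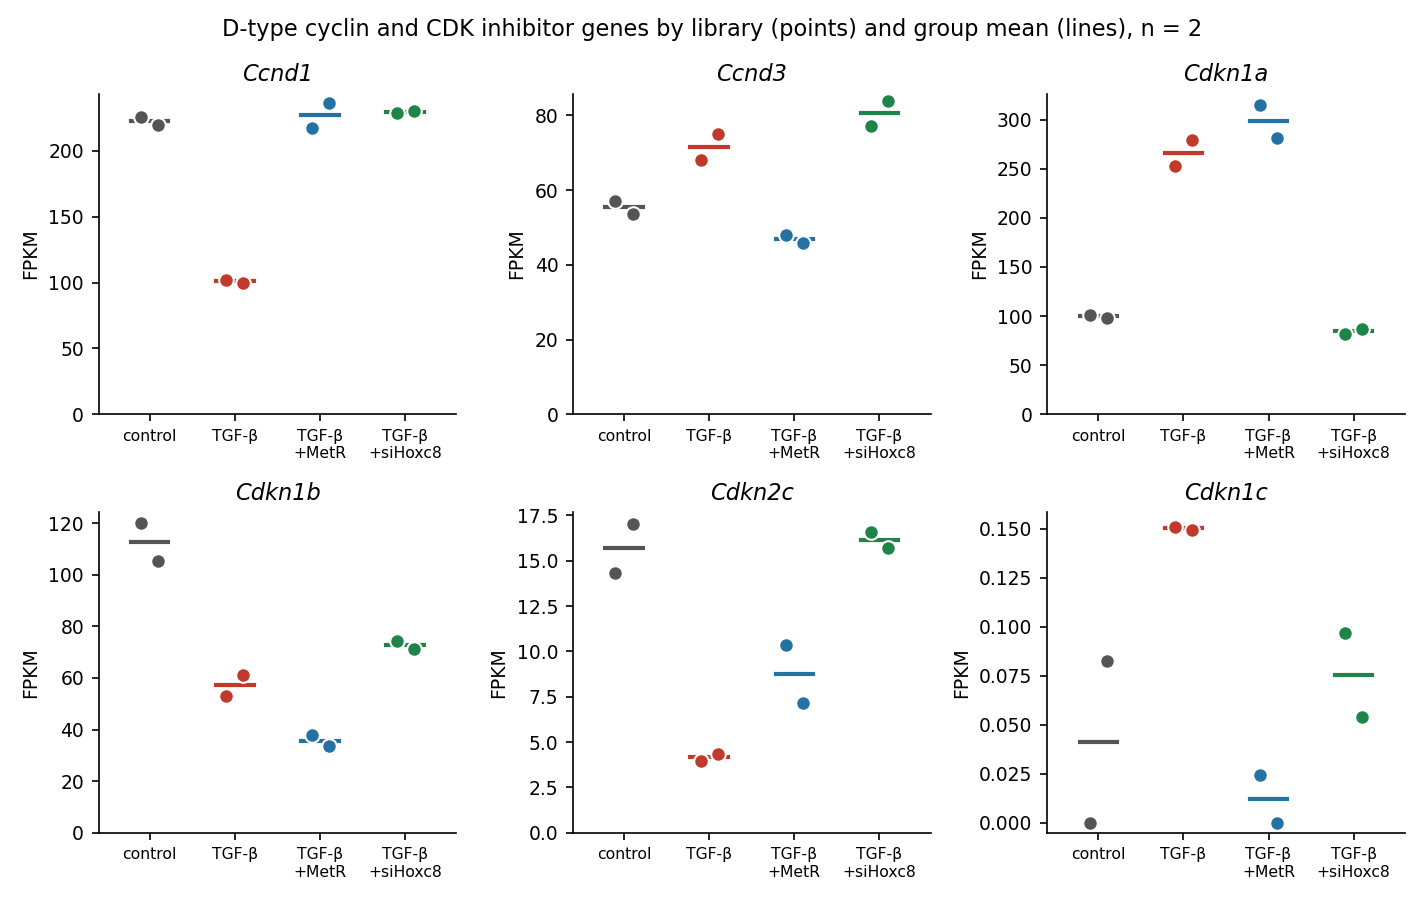
FPKM (y axis) of the 5 tested members and of Cdkn1c in each of the 8 libraries by group, each point 1 library and each line the group mean, with a scale of its own for each gene. Ccnd1 sits at 100 to 101.9 FPKM in the TGF-β libraries and at 217.4 to 236.7 in the other 6, while Cdkn1a is at 252.6 to 315 in the TGF-β and MetR libraries and at 82.09 to 100.8 in the others.

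Against control, TGF-β raised 2 and lowered 3 of the 5 tested members, where 10.3% of all 12315 tested genes were raised and 28.6% lowered. The median of all tested genes moved by -0.19 on the log2 scale, so with a median ratio rescaling the background became 19.1% raised and 17% lowered, while the members' calls and directions stayed as they were. Against TGF-β alone, MetR raised 2 and lowered 2 members (background 34.8% and 19.0%, rescaled 25.5% and 26.6%, median of all genes 0.18). siHoxc8 raised 3 (2 after rescaling) and lowered 1 (background 28.1% and 15.7%, rescaled 20.9% and 22.3%, median 0.13). Against control, MetR raised 1 and lowered 2 (background 28.0% and 29.3%), and siHoxc8 raised 1 and lowered 1 (21.7% and 27.0%). siHoxc8 against MetR gave 3 members higher and 1 lower (24.9% and 29.3%). These comparisons share libraries, so their values are given side by side only.

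Ccnd1, the D-type cyclin that serum and growth factors induce in fibroblasts, was at 225.5 and 219.8 FPKM in control, 101.9 and 100 with TGF-β, 217.4 and 236.7 with MetR, and 228.9 and 230.3 with siHoxc8. Both TGF-β libraries were low, far below the other 6, and the MetR libraries spanned the control and siHoxc8 values, which did not overlap each other. TGF-β lowered Ccnd1 by 2.21-fold, a log2 change of -1.13 ± 0.09 (SE, adjusted p = 0.000156), and against TGF-β it was 2.25-fold higher with MetR (1.16 ± 0.09, adjusted p = 0.000103) and 2.27-fold higher with siHoxc8 (1.18 ± 0.09, adjusted p = 9.46e-05). Against control neither differed beyond the threshold. The difference was 0.03 with MetR (95% interval -0.18 to 0.23, adjusted p = 0.814) and 0.04 with siHoxc8 (-0.16 to 0.25, adjusted p = 0.702). The 2 treatments differed from each other by 0.02 (-0.19 to 0.22, adjusted p = 0.88). In control cells Ccnd1 was among the most abundant mRNAs, with 1.78% and 1.85% of the detected genes above it, against 5.05% and 5.53% with TGF-β.

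Ccnd3, the D-type cyclin with the broadest expression in tissues, was expressed at a lower level. It was at 57.15 and 53.66 FPKM in control, 67.98 and 74.98 with TGF-β, 48.01 and 45.9 with MetR, and 77.23 and 83.93 with siHoxc8. No 2 groups overlapped, with MetR lowest and siHoxc8 highest. TGF-β raised it 1.29-fold (0.36 ± 0.10, adjusted p = 0.0224), and MetR lowered it by 1.52-fold against TGF-β (-0.59 ± 0.10, adjusted p = 0.00181). The rise with TGF-β rested on few libraries: the adjusted p was 0.0884 without control replicate 1, 0.152 without control replicate 2 and 0.0881 without TGF-β replicate 2, whereas rescaling gave 0.59 (adjusted p = 0.00306). siHoxc8 against TGF-β gave 0.17 (interval -0.05 to 0.40, adjusted p = 0.191), against control 0.53 (adjusted p = 0.00333) and against MetR 0.77 (adjusted p = 0.000513). MetR against control gave -0.23 (interval -0.46 to -0.01, adjusted p = 0.072).

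Ccnd2, the third D-type cyclin, was listed at 0 in 6 libraries and at 0.0351 FPKM in MetR replicate 1 and 0.117 in siHoxc8 replicate 2. The smallest whole numbers of reads that fit these 2 values are 1 and 3, so Ccnd2 was hardly detectable and was not tested. The summed level of the 3 D-type cyclins was 282.7 and 273.4 FPKM in control, 169.9 and 175 with TGF-β, 265.4 and 282.6 with MetR, and 306.1 and 314.4 with siHoxc8. The TGF-β libraries were lowest and the siHoxc8 libraries highest.

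Cdkn1a, which encodes the CIP/KIP inhibitor p21 and is a classic target of both p53 and TGF-β signalling, was raised by TGF-β. Its promoter is shown because Cdkn1a is the member with the largest difference between the 2 added treatments and because its window held a match to the p53 half-site, which 6.64% of the 33469 RefSeq promoters of equal length hold in the 250 bases before the start. The stretch lies outside the annotated gene, on the plus strand of GRCr8 at chr20:7150682-7150819, with the half-site in capitals, written 5′ to 3′.
Cdkn1a: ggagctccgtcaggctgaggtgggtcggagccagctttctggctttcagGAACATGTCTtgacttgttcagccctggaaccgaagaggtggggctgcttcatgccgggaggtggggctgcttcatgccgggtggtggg
The table of RefSeq promoters held 7 of the 10 members (Ccnd1, Ccnd2 and Cdkn1c were not among them). Both strands were searched for the GC box GGGCGG (in 30.5% of all promoters), the CCAAT box CCAAT (34%), the TATA box TATAAA (12.9%), an E2F site (TTTCCCGC, TTTCGCGC, TTTGGCGC or TTTGCCGC, 1.73%), the SMAD element GTCTAGAC (0.173%), the homeobox core TAATTA (4.86%) and the p53 half-site. The Cdkn1a window held the half-site starting at -201 and none of the other motifs, and of the 7 members Cdkn2c and Cdkn2d held the half-site too. Only 138 of the 250 bases of the Cdkn1a window lie outside the annotated gene, so the start used is not the gene's first base. No other Cdkn1a start was searched, so motifs absent from this window may lie before another start. Cdkn1b held a GC box and 2 CCAAT boxes, and Ccnd3 2 GC boxes and 1 CCAAT box. None of the 7 windows held the TATA box, the E2F site, the SMAD element or TAATTA in these letters, which says nothing about the factors. The windows of Ccnd3, Cdkn2a and Cdkn2c lay wholly inside the annotated gene, and that of Cdkn1b all but 19 bases. Matches in these windows are thus not sequence upstream of the whole gene. The Cdkn2d window lay wholly outside its gene.

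Cdkn1a was at 100.8 and 98.36 FPKM in control, 252.6 and 279.3 with TGF-β, 315 and 281.5 with MetR, and 82.09 and 87.04 with siHoxc8. The TGF-β and MetR libraries were all high, the control and siHoxc8 libraries all low, and siHoxc8 lay below control without overlap. TGF-β raised Cdkn1a 2.67-fold (1.41 ± 0.10, adjusted p = 0.000116). Under siHoxc8 it was 3.14-fold lower than with TGF-β alone (-1.64 ± 0.10, adjusted p = 5.05e-05), whereas MetR differed from TGF-β by 0.16 (interval -0.07 to 0.40, adjusted p = 0.203), a difference that became -0.05 after rescaling. MetR left it 2.99-fold over control (1.57, adjusted p = 3.01e-05), and the direct comparison of siHoxc8 with MetR gave 3.53-fold less (-1.80, adjusted p = 1.91e-05). Against control, siHoxc8 gave -0.23 (interval -0.47 to 0.00, adjusted p = 0.0909). That difference passed the threshold when only these 2 groups were fitted (adjusted p = 0.00746) or without MetR replicate 1 (0.036) or 2 (0.0361).

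**Figure D2:**
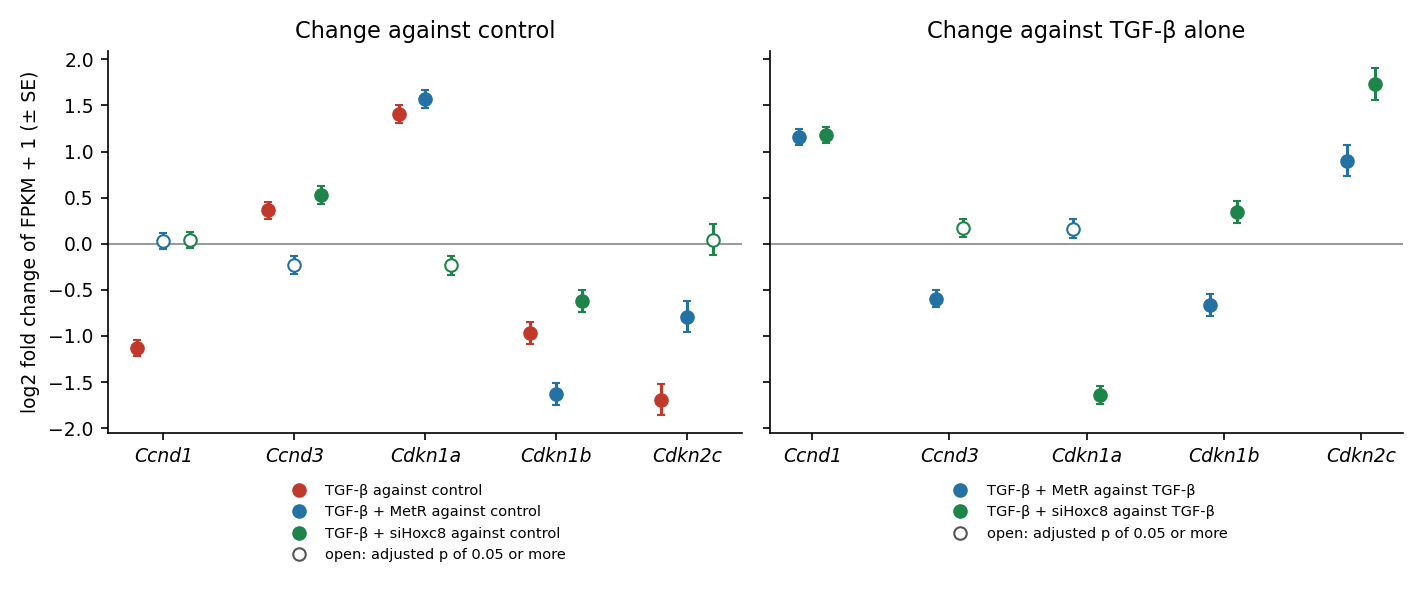
Log2 fold change of FPKM + 1 (y axis) of the tested members, with the standard error, against control on the left and against TGF-β alone on the right; filled points have an adjusted p under 0.05 and open points do not. On the right, Ccnd1 lies at 1.16 and 1.18 for MetR and siHoxc8, while Cdkn1a lies at 0.16 and -1.64.

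Cdkn1b, which encodes p27, the CIP/KIP inhibitor that accumulates in resting fibroblasts, went against Cdkn1a under TGF-β. It was at 120 and 105.2 FPKM in control, 53.16 and 61.22 with TGF-β, 37.88 and 33.46 with MetR, and 74.5 and 71.19 with siHoxc8. The groups did not overlap, with control highest and MetR lowest. TGF-β lowered it 1.97-fold (-0.97 ± 0.12, adjusted p = 0.00085) and MetR lowered it further (-0.67 ± 0.12, adjusted p = 0.00254), to a level 3.16-fold below control (-1.63, adjusted p = 4.25e-05). siHoxc8 gave 0.35 ± 0.12 against TGF-β (adjusted p = 0.0453), a call lost after rescaling (0.18, adjusted p = 0.257), with limma-voom (0.19, adjusted p = 0.247), with the replicate number as a block (adjusted p = 0.0547), with low values left in (0.0674), and on leaving out either control library (0.0701 and 0.07), TGF-β replicate 1 (0.19) or siHoxc8 replicate 1 (0.202) or 2 (0.132). With siHoxc8 it was still below control (-0.62, adjusted p = 0.00392) and above MetR (1.01, adjusted p = 0.000342).

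Cdkn1c, the CIP/KIP inhibitor p57, was listed at 0 and 0.0827 FPKM in control, 0.151 and 0.149 with TGF-β, 0.0243 and 0 with MetR, and 0.0971 and 0.0539 with siHoxc8. The highest of these values equals 5 reads. The TGF-β libraries were the highest and it was not tested, and with no filter on low values its difference between MetR and TGF-β passed the threshold (-0.18, adjusted p = 0.028). At this depth such values cannot be read as a level.

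The CIP/KIP genes together were at 220.8 and 203.7 FPKM in control, 305.9 and 340.6 with TGF-β, 352.9 and 314.9 with MetR, and 156.7 and 158.3 with siHoxc8. Cdkn1a made up 45.66% and 48.3% of that sum in control, 82.57% and 81.98% with TGF-β, 89.26% and 89.38% with MetR, and 52.39% and 54.99% with siHoxc8. Control fibroblasts thus held Cdkn1a and Cdkn1b mRNA at near equal levels, and the TGF-β and MetR libraries held mostly Cdkn1a. The ratio of Cdkn1a to Cdkn1b was 0.84 and 0.935 in control, 4.75 and 4.56 with TGF-β, 8.32 and 8.41 with MetR, and 1.1 and 1.22 with siHoxc8, with no overlap between groups.

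**Figure D3:**
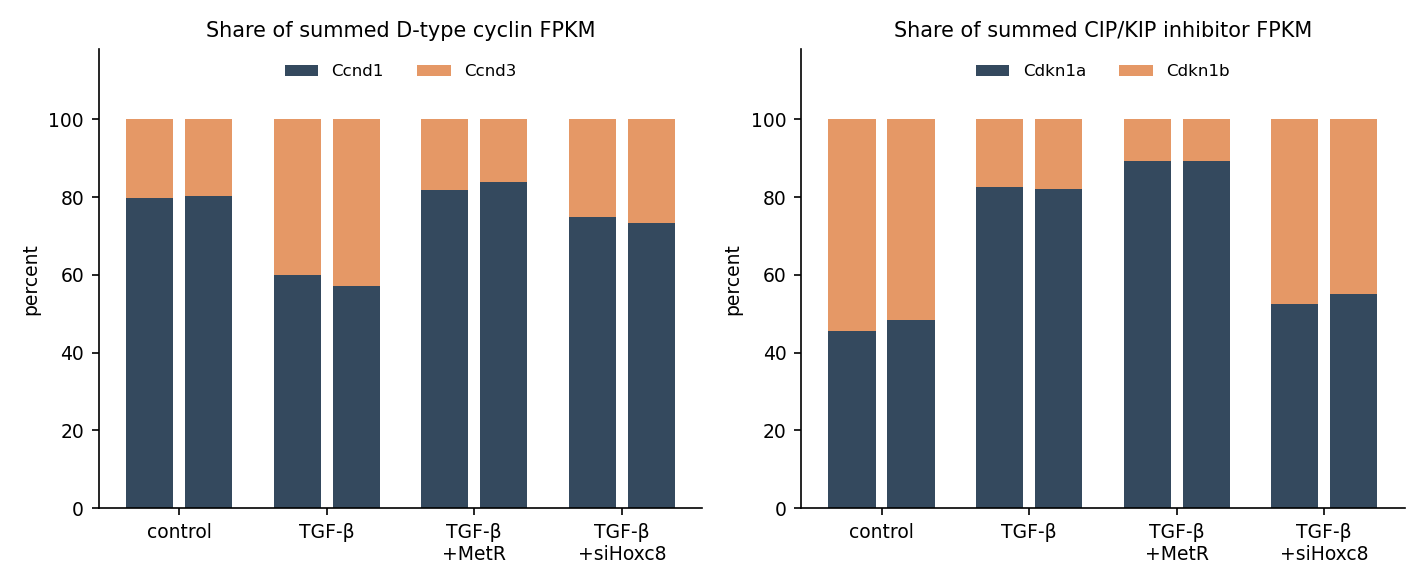
Share in percent (y axis) of each gene in the summed FPKM of the D-type cyclins and of the CIP/KIP inhibitors, with 1 stacked bar per library; Ccnd2 and Cdkn1c are counted but too small to see. Ccnd1 makes up 79.78% and 80.38% of the D-type cyclins in control and 59.98% and 57.16% with TGF-β, and Cdkn1a makes up 45.66% to 54.99% of the CIP/KIP sum in control and siHoxc8 libraries and 81.98% to 89.38% in the others.

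Of the 3 INK4 genes in the table, Cdkn2c passed the filter for testing and Cdkn2a and Cdkn2b did not. Cdkn2c, which encodes p18, was at 14.33 and 17.03 FPKM in control, 3.96 and 4.34 with TGF-β, 10.35 and 7.15 with MetR, and 16.56 and 15.72 with siHoxc8. The TGF-β libraries were lowest, the MetR libraries lay between them and control, and siHoxc8 overlapped control. TGF-β lowered it 3.78-fold (-1.69 ± 0.17, adjusted p = 0.000408). Against TGF-β it was 2.11-fold higher with MetR (0.90 ± 0.17, adjusted p = 0.00355) and 3.89-fold higher with siHoxc8 (1.73 ± 0.17, adjusted p = 0.000281), and siHoxc8 exceeded MetR by 0.83 (adjusted p = 0.00487). MetR stayed below control (-0.79, adjusted p = 0.00564), and siHoxc8 differed from control by 0.04 (interval -0.35 to 0.44, adjusted p = 0.848). It rested on 92 to 433 reads per library, against 1027 or more for each of the other 4 tested members.

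Cdkn2b, which encodes p15 and is the INK4 gene known for induction by TGF-β in epithelial cells, was listed at 0 in all 8 libraries, those with TGF-β included. Its promoter is shown because it is the member for which a TGF-β response is best known and which gave no signal here. The stretch lies on the minus strand of GRCr8 at chr5:109134907-109135105, outside the annotated gene, with the GC box (on either strand) in capitals, written 5′ to 3′.
Cdkn2b: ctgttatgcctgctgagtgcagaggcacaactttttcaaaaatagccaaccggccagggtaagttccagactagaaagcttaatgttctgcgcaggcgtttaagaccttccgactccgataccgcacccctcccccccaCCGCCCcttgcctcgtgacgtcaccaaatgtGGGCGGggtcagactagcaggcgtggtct
The whole window held 3 GC boxes, starting at -111, -80 and -47, of which the last is in the part not shown. Cdkn2a, which encodes p16 and the p53-stabilising ARF protein, was listed at 0 in 7 libraries and at 0.0625 FPKM in MetR replicate 2.

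Members were also set against each other within a library, where no scaling between libraries enters. Apart from Ccnd1 over Ccnd3, which replaced a planned ratio, these ratios were not planned. Ccnd1 over Cdkn1a pairs 2 genes that TGF-β moved in opposite directions. Ccnd1 exceeded Cdkn1a by a ratio of 2.24 and 2.23 in control and of 2.79 and 2.65 with siHoxc8. With TGF-β the ratio was 0.403 and 0.358, and with MetR 0.69 and 0.841. Ccnd1 was thus the more abundant mRNA in control and siHoxc8 libraries and Cdkn1a in the TGF-β and MetR libraries, and no 2 groups overlapped. The D-type cyclin sum over the CIP/KIP sum was 1.28 and 1.34 in control, 0.555 and 0.514 with TGF-β, 0.752 and 0.897 with MetR, and 1.95 and 1.99 with siHoxc8. MetR lay between TGF-β and control on both ratios, and siHoxc8 lay above control. Ccnd1 over Ccnd3 was 3.95 and 4.1 in control, 1.5 and 1.33 with TGF-β, 4.53 and 5.16 with MetR, and 2.96 and 2.75 with siHoxc8. With 2 libraries a group the exact permutation test of such a ratio cannot reach 0.05, so none was run.

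**Figure D4:**
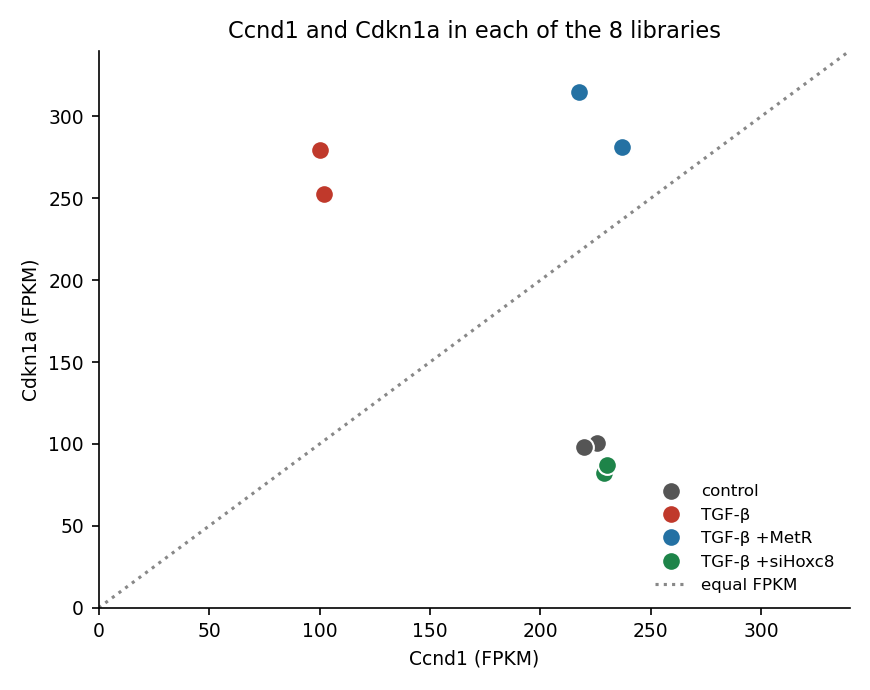
FPKM of Cdkn1a (y axis) against FPKM of Ccnd1 (x axis), 1 point per library, coloured by group, with a dotted line where both are equal. The 2 TGF-β libraries lie at low Ccnd1 (101.9 and 100) and high Cdkn1a (252.6 and 279.3), the MetR libraries are high for both, and the control and siHoxc8 libraries are high for Ccnd1 and low for Cdkn1a.

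Other genes of the G1 circuit were followed from lists, each described by its counts and median. The median of all tested genes was -0.19 with TGF-β against control, 0.18 with MetR and 0.13 with siHoxc8 against TGF-β. In the same order, 10.3%, 34.8% and 28.1% of all tested genes were raised and 28.6%, 19.0% and 15.7% lowered. Of 6 genes for interphase CDKs and the CDK-activating kinase (Cdk4, Cdk6, Cdk2, Cdk7, Ccnh and Mnat1), TGF-β raised 1 (Cdk7, 0.44 ± 0.10) and lowered 1 (Cdk6, -0.63 ± 0.21, adjusted p = 0.0479, lost after rescaling). Both calls were lost without either control library or without TGF-β replicate 2. The Cdk6 call was also lost with no filter, with only the 2 groups fitted and without either siHoxc8 library. Cdk4, the main partner of the D-type cyclins, was at 279.8 and 275.6 FPKM in control and 228.7 and 265.4 with TGF-β (-0.17, adjusted p = 0.213). siHoxc8 raised Cdk4 (0.49 ± 0.10, adjusted p = 0.00667) and Cdk2 (1.08 ± 0.13, adjusted p = 0.000673), the first of these only with siHoxc8 replicate 2 kept. siHoxc8 lowered Cdk7 (-0.53 ± 0.10, adjusted p = 0.00526). MetR raised 0 of the 6 and lowered 2, Cdk7 (-0.61 ± 0.10, adjusted p = 0.00228) and Mnat1 (-0.52 ± 0.14, adjusted p = 0.0164), and it raised 1 when any TGF-β or MetR library was left out. The Mnat1 call was lost without TGF-β replicate 2.

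**Figure D5:**
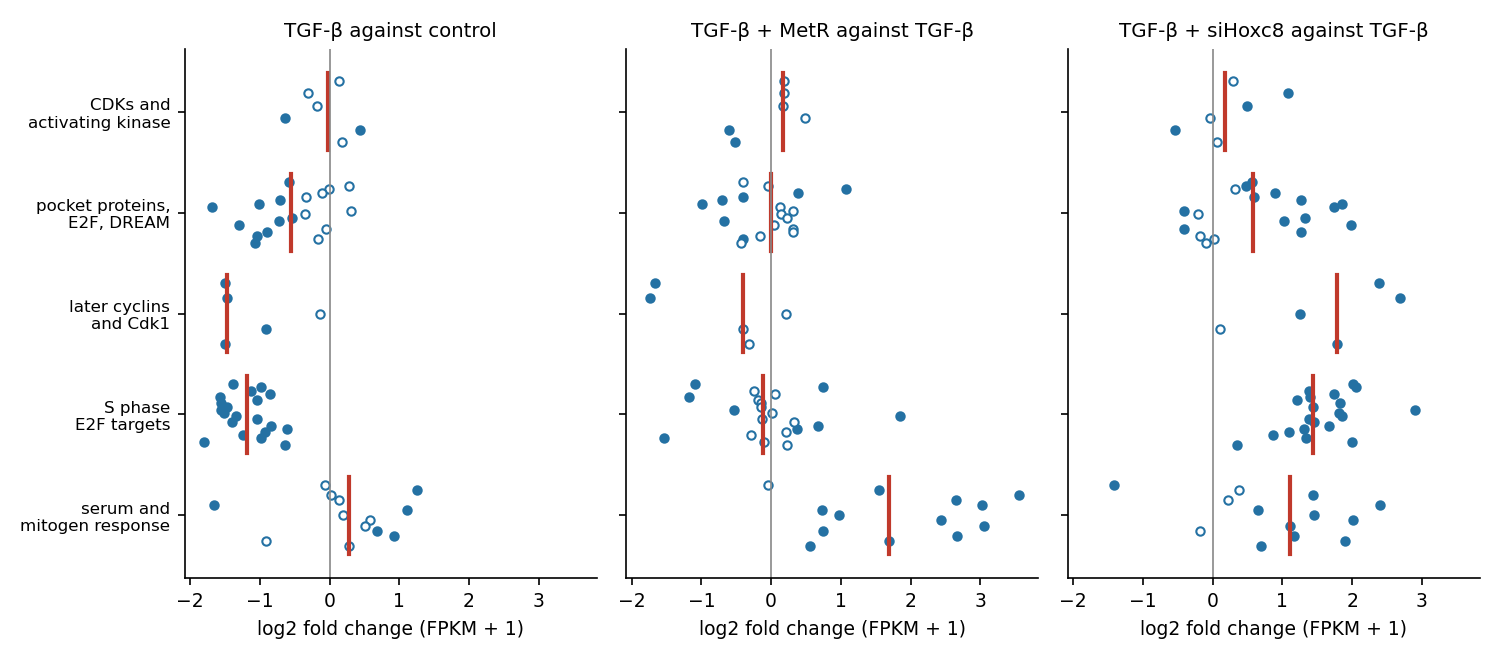
Log2 fold change of FPKM + 1 (x axis) of each tested gene of 5 pathway lists (y axis) in the 3 main comparisons; filled points passed the threshold, open points did not, and the red line is the list median. The 20 S phase genes lie below 0 with TGF-β (median -1.19) and above 0 with siHoxc8 against TGF-β (median 1.45), and on both sides of 0 with MetR (median -0.12).

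Downstream of the D-type cyclins, the E2F target genes of S phase moved as a block in 2 of the 3 main comparisons. TGF-β lowered 20 of 20 (median -1.19), among them Tk1 (-1.81 ± 0.11), Mcm3 (-1.56 ± 0.13) and Mcm5 (-1.55 ± 0.16), enzymes and helicase subunits of DNA replication. siHoxc8 raised 20 of 20 against TGF-β (median 1.45), with Mcm5 at 2.90 ± 0.16 and Cdt1, a licensing factor, at 2.05 ± 0.15. The same siHoxc8 libraries had the highest Krt8 level (685.1 and 645.5 FPKM), and a link between Krt8 and these genes was not tested. MetR raised 4 and lowered 4 (median -0.12), with Mcm7 up (1.86 ± 0.19) and Rrm2, a subunit of ribonucleotide reductase, down (-1.53 ± 0.18). After rescaling it raised 3 and lowered 7, and without MetR replicate 1 it raised 6 and lowered 3. Against control, MetR left 16 of 20 lower (median -1.30) beside a Ccnd1 level that did not differ from control beyond the threshold, and siHoxc8 had 6 higher and 2 lower (median 0.29). The siHoxc8 counts depended on the fit: 10 were higher without either MetR library and 13 with only the 2 groups fitted, and 0 were lower after rescaling or without any 1 of the control or siHoxc8 libraries.

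The pocket proteins, E2Fs and subunits of the DREAM complex, which hold or release those targets, gave 10 lower and 0 higher of 18 tested with TGF-β (median -0.56). The lower count was 6 without control replicate 1, and 2 genes were higher after rescaling. Foxm1, a driver of mitotic genes, fell by 1.68 on the log2 scale and Mybl2 by 1.29, while Rbl2, the pocket protein of resting cells, fell by 1.04. siHoxc8 raised 11 and lowered 2 (median 0.58), with Mybl2 at 1.98 ± 0.23, E2f8 at 1.85 ± 0.15 and Foxm1 at 1.74 ± 0.11. Of these 2 lowered genes, Rb1 and Lin37, 0 were called with no filter, under the replicate block or without any 1 of the control, TGF-β or siHoxc8 libraries, and 3 genes were lowered after rescaling. MetR raised 2 and lowered 5 (median 0.00), with E2f4, a repressive E2F, up (1.07 ± 0.14) and E2f7 down (-0.71 ± 0.14). With MetR the split was 1 and 8 after rescaling, and 6 and 4 without MetR replicate 1.

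Of 5 later cyclin and CDK1 genes tested, TGF-β lowered 4, siHoxc8 raised 4 against TGF-β and MetR lowered 2 (4 after rescaling). Ccna2, the cyclin of S and G2 phase, was at 13.35 and 12.94 FPKM in control, 3.76 and 4.26 with TGF-β, 0.65 and 0.508 with MetR, and 26.31 and 24.04 with siHoxc8. No groups overlapped. MetR lowered Ccna2 further than TGF-β alone (-1.66 ± 0.12, adjusted p = 9.05e-05) and siHoxc8 raised it (2.39 ± 0.12, adjusted p = 2.52e-05). Ccnb1, the mitotic cyclin, gave -1.73 ± 0.19 with MetR and 2.69 ± 0.19 with siHoxc8 against TGF-β. Ccna2 and Ccnb1 were thus lowest in the MetR libraries, where Ccnd1 was at 217.4 and 236.7 FPKM.

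Of 20 tested transcription factors and partners known to regulate the members, TGF-β raised 4 and lowered 5 (6 and 2 after rescaling). Of all tested genes, 10.3% were raised and 28.6% lowered (19.1% and 17% after rescaling). The list counts moved when a control or MetR library was left out, as did those over all genes. Klf4, an activator of Cdkn1a, was lowered (-2.91 ± 0.16) and Ets2 raised (1.20 ± 0.10). MetR raised 10 and lowered 1 against TGF-β (7 and 2 after rescaling), beside 34.8% and 19.0% of all tested genes. Myc, known for repressing Cdkn1a and inducing Ccnd2, was at 31.16 and 29 FPKM in control, 35.65 and 36.59 with TGF-β, 94.41 and 162.2 with MetR, and 40.29 and 43.5 with siHoxc8. The MetR libraries were high and far apart from each other, and the change against TGF-β was 1.75 ± 0.22 (adjusted p = 0.000616). Mdm2, a p53 target like Cdkn1a and the ligase that degrades p53, was at 42.69 and 39.92 FPKM in control, 67.13 and 73.61 with TGF-β, 172.2 and 219.7 with MetR, and 60.38 and 60.99 with siHoxc8. Mdm2 rose with TGF-β (0.75 ± 0.13, adjusted p = 0.00347) and further with MetR (1.46 ± 0.13, adjusted p = 0.000174), and siHoxc8 differed from TGF-β by -0.21 (adjusted p = 0.222). siHoxc8 raised 4 and lowered 3 of the list, with Klf4 at -0.81 ± 0.16 (2 and 6 after rescaling). Of all tested genes, 28.1% were raised and 15.7% lowered. The siHoxc8 counts of the list rose without either MetR library, as did those over all genes.

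Of 13 serum and mitogen response genes, whose products report the signals that induce Ccnd1, MetR raised 12 against TGF-β (median 1.69) and siHoxc8 raised 9 and lowered 1 (median 1.11). The siHoxc8 count of raised genes was 5 without TGF-β replicate 1, and 6 without TGF-β replicate 2 or without either siHoxc8 library. Etv5, an ERK-induced factor, was at 10.4 and 9.49 FPKM in control, 2.45 and 2.5 with TGF-β, 26.34 and 28.38 with MetR, and 16.99 and 17.57 with siHoxc8. TGF-β lowered it (-1.65 ± 0.10, adjusted p = 7.26e-05), and it rose with MetR (3.03 ± 0.10, adjusted p = 9.66e-06) and siHoxc8 (2.39 ± 0.10, adjusted p = 2.26e-05). Etv5 was the only gene of the list that TGF-β lowered beyond the threshold, while Dusp6, Fos, Junb and Jun were raised. From control to TGF-β the group mean went from 23.91 to 58.62 FPKM for Dusp6 and from 0.424 to 2.06 for Fos. Junb went from 34.19 to 66.03 FPKM and Jun from 35.19 to 56.87. TGF-β raised 4 and lowered 1 of the 13 (median 0.28), and raised 2 without control replicate 1 or TGF-β replicate 2 and 7 without either MetR library. The MetR libraries differed between themselves, with Junb at 295.5 and 603 FPKM.

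Across the 8 libraries, the genes whose log2 level was most like each member's were found by Pearson's r, as a description over libraries that share 4 groups. Ccnd1 was most like Ehbp1 (r = 0.990), which was at 3.38 and 3.04 FPKM with TGF-β and 6.53 to 8.1 elsewhere, and Cep192 (0.987). Cdkn1a was most like Jph2 (0.995), at 51.92 and 50.03 FPKM with TGF-β, 59.08 and 61.35 with MetR and 11.28 to 12.95 elsewhere, and Basp1 (0.992). Cdkn1b was most like Rpl37 (0.992), a ribosomal protein gene whose reads may be shared with copies, and Pdlim2 (0.990). Ccnd3 was most like Tcf7 (0.987) and Vwa1 (0.984), and Cdkn2c most like Col6a1 (0.987) and Gnpda1 (0.985).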

How the data were processed

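PolyA RNA of NRK-49F cells was measured in 8 libraries (4 groups of 2), of a series of 28 samples, and the other 20 samples, of chromatin immunoprecipitation, were not used here. The values are FPKM, deposited by the authors as 1 table of 30178 genes, with no raw counts used here. The submitters' processing notes name Trim Galore, Bowtie2 2.3.5.1, deepTools, featureCounts and the build rn6, with no roles. The sources used here give neither strand nor annotation, so reads of overlapping or antisense genes cannot be told apart.

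The 12315 genes that reached 1 FPKM in 2 or more libraries were tested with limma 3.58.1 in R 4.3.3 on log2(FPKM + 1), with a trended prior, all 8 libraries and 1 coefficient per group (4 residual degrees of freedom, prior 3.47). Tests were two-sided, Benjamini-Hochberg adjusted over all tested genes per comparison, with a threshold of 0.05. Fold changes are on the log2(FPKM + 1) scale and understate those of low genes. Fold values in words are ratios of group means. Each gene's FPKM values were whole multiples of 1 read's worth for 19435 of 19435 genes above 0, within 0.02 reads, which gave the reads per library. A gene above 0 in only 1 library meets this by construction. One above 0 in few libraries can meet it by chance, since a wide range of multiples was searched. For genes above 0 in few libraries, the reads are the smallest whole numbers that fit. The fit was tested on simulated data. The ratio of Ccnd1 to Ccnd2 was planned, but Ccnd2 was listed at 0 in most libraries, so Ccnd3 took its place. The other ratios between members, Cdkn1a to Cdkn1b among them, were not planned.

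Alternatives were a pseudocount of 0.1, no filter, a median ratio rescaling, limma-voom on the recovered reads, the replicate number as a block, only the groups compared, and leaving out each library. The members and lists were chosen with earlier results of these data known. Named genes were all members, Hoxc8, up to 4 called genes by size of change from each list and comparison, and the 2 genes most like each tested member. E2f1, Ccnb2, Col1a2 and Pecam1 were not analysed here. Promoters are from RefSeq (GRCr8), a build other than that of the table, used only for sequence.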

Additional observations from a re-analysis of the deposited data

How the results depend on the processing

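Under the 14 alternatives, the number of members called stayed within 1.5 times the reported number in each of the 6 comparisons. With no filter, the replicate block, only the 2 groups fitted or a library outside the comparison left out, a log2 change cannot move. Only its p-value can. Over 420 values of single members, these included, 400 kept their direction and their side of the threshold, 12 lost the call, 3 gained one and 5 turned. None of the 5 was called: Cdkn1a with MetR against TGF-β became -0.0545 after median ratio rescaling and -0.0509 with limma-voom on recovered reads, Ccnd1 with MetR against control -0.0345 without MetR replicate 2 (up to 0.0879 over single libraries left out), Cdkn2c with siHoxc8 against control -0.0732 without control replicate 1 (up to 0.161), and Ccnd1 with siHoxc8 against MetR -0.0435 without MetR replicate 1 (up to 0.0789). The rescaling divided the TGF-β libraries by 0.899 and 0.908 and the MetR libraries by 1.03 and 1.08. This lowers MetR against TGF-β by construction, and the limma-voom fit scaled its reads by median ratios too. Why the factors differ was not tested. All groups shared 1 spread in the fit. The standard deviation between replicates on the log2 scale was 0.177 in control, 0.223 with TGF-β, 0.307 with MetR and 0.186 with siHoxc8. With only the 2 groups fitted, MetR against TGF-β gave a higher adjusted p, still under the threshold. It was 0.00456 for Ccnd1, 0.0255 for Ccnd3, 0.023 for Cdkn1b and 0.0228 for Cdkn2c. Without 1 library the fit has fewer samples and assumes that the lone library of that group varies like the others. With the replicate number as a replicate block, 5, 4, 3, 3, 2 and 4 members were called in the 6 comparisons. The block ended 1 member call, Cdkn1b with siHoxc8 against TGF-β (0.35, adjusted p = 0.0547). The labels tie the numbers to no shared culture or day, and deviations of same-numbered libraries had correlations of -0.020 to 0.024 in 5 pairs of groups and of 0.202 between TGF-β and MetR, and the numbers were not taken as pairs. Limma-voom called 2277 genes raised and 2158 lowered with TGF-β against control, against 1269 and 3523 as reported. Without control replicate 1 these were 620 and 1700, and without control replicate 2 they were 649 and 1823. With siHoxc8 against TGF-β, 3460 raised and 1934 lowered became 2004 and 1148 without siHoxc8 replicate 1 and 2120 and 1247 without siHoxc8 replicate 2. With siHoxc8 against control, 2668 and 3331 became 1687 and 2156 without control replicate 1, 1682 and 2211 without control replicate 2, 1676 and 2217 without siHoxc8 replicate 1, and 1709 and 2273 without siHoxc8 replicate 2. In comparisons that do not involve MetR, the all-gene counts of raised and of lowered genes both rose without either MetR library. The list counts under such fits are to be read beside that. Depth limits Ccnd2, Cdkn1c and Cdkn2a, at 5 recovered reads or fewer. Why Cdkn2b is listed at 0 was not tested.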

Other observations

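Genes that set the ubiquitination of D-type cyclins and CDK inhibitors were followed as well, ligase subunits for the most part, with the kinase gene Gsk3b and the deubiquitinase gene Usp2, whose product stabilises cyclin D1. Of 13 tested, TGF-β lowered 7 (median -0.35, and 4 lowered with 1 raised after rescaling, or 4 lowered without either control library), siHoxc8 raised 7 against TGF-β, Usp2 among them (median 0.39), and MetR raised 2 and lowered 2 (median 0.12, with 4 lowered after rescaling and 4 raised without MetR replicate 1). Of all tested genes, TGF-β lowered 28.6%, siHoxc8 raised 28.1%, and MetR raised 34.8% and lowered 19.0%. The siHoxc8 counts of the list rose without either MetR library, as did those over all genes. Cks1b, the cofactor through which the SKP2 ligase recognises p27, was at 41.68 and 40.14 FPKM in control, 16.67 and 18.73 with TGF-β, 18.07 and 25.12 with MetR, and 58.82 and 57.06 with siHoxc8. It fell with TGF-β (-1.17 ± 0.15, adjusted p = 0.00111) and rose with siHoxc8 against TGF-β (1.66 ± 0.15, adjusted p = 0.000201). Dtl, the substrate receptor for p21 in S phase, gave -1.30 ± 0.14 and 1.68 ± 0.14 in the same comparisons. Ambra1, the receptor that marks D-type cyclins for degradation, was at 11.72 and 12.09 FPKM in control, 9.38 and 7.69 with TGF-β, 15.95 and 15.19 with MetR, and 10.92 and 12.03 with siHoxc8, and MetR raised it against TGF-β (0.80 ± 0.12, adjusted p = 0.00131).

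Of 5 genes for the phosphatases and kinases that set CDK activity, TGF-β lowered 3, MetR lowered 2 and siHoxc8 raised 4 against TGF-β. The shares of all tested genes were 28.6%, 19.0% and 28.1% in the same order. Cdc25a, the phosphatase that activates CDK2 at the entry to S phase, was at 12.02 and 11.45 FPKM in control, 11.69 and 11.16 with TGF-β, 12.85 and 13.9 with MetR, and 22.4 and 22.75 with siHoxc8. The siHoxc8 libraries stood apart, at 0.92 ± 0.10 over TGF-β (adjusted p = 0.000362).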
